A study of Homo sapiens with 6 samples.

Results

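The 42 genes described here encode SR proteins (11 SRSF genes, with the SR-like TRA2A and TRA2B), hnRNPs (22 HNRNP genes), polypyrimidine tract-binding proteins (PTBP1, PTBP2 and PTBP3) and poly(C)-binding proteins (PCBP1 to PCBP4). They were taken by symbol alone from a table of 20111 genes, while the families were chosen with earlier results of these data known. A filter of 1 FPKM in at least 2 libraries was passed by 41 of the 42. SRSF12 was listed at 0 in all 6 libraries and was not tested.

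RNA came from MDA-MB-231 cells, a long-used human breast cancer line of the triple-negative kind (without hormone receptors or amplified HER2), transfected with siNCOA3 (against the nuclear receptor coactivator NCOA3), with siSHC1 (against the adaptor protein SHC1) or with siControl, and collected at 48 h or 24 h. Every group shares the line and the transfection. There are 6 libraries, 1 for every combination of the 3 siRNAs with the 2 times. The labels name 1 siRNA per target and say nothing of separate cultures, so that p-values measure only the spread between these 6 libraries. NCOA3 stood at 1.85 and 1.72 FPKM in the siNCOA3 libraries of 48 h and 24 h, against 11.4 and 10.3 FPKM in the siControl libraries, and SHC1 stood at 15.5 and 14.7 FPKM in the siSHC1 libraries, against 119 and 103 FPKM.

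SR proteins carry RNA recognition motifs and a tail rich in arginine and serine, bind exonic enhancers and help U1 and U2 particles to define exons. The hnRNPs and the PTBPs coat nascent transcripts and often silence exons, while the PCBPs bind C-rich RNA through KH domains and act in splicing, mRNA stability and translation. Many of these genes hold their own level through exons that bring in a premature stop and lead to nonsense-mediated decay. The table gives 1 value per gene, so that such transcript forms were not separated here.

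Total FPKM per library ran from 495518 to 553073, and the 42 genes held 1.02% (siSHC1, 48 h) to 1.23% (siControl, 24 h) of it. Depth in reads is unknown. The relative depth read from low values was lowest in siSHC1 (1.01 at 48 h and 1.03 at 24 h) and in siControl at 24 h (set to 1), and highest in siControl at 48 h (1.45). All 8 markers of the line (among them VIM, CD44 and AXL) were present. Of 9 receptor and luminal markers 5 passed the filter. These were KRT8 (206 to 285 FPKM), KRT18 (160 to 206), ERBB2 (26.9 to 35.5), EPCAM (6.65 to 10.7) and GATA3 (4.67 to 5.56). FOXA1 and CDH1 did not pass, PGR was listed at 0 throughout and ESR1 reached 0.0922 FPKM at most. Of 9 measured markers of other cell types 3 passed the filter. The 9 summed to 54.2 and 55.4 FPKM in siSHC1, 64.2 and 67.7 in siNCOA3 and 65.1 and 52.1 in siControl. CD68 made up most of these sums, the leukocyte marker PTPRC reached 0.0549 FPKM at most, and only COL1A1 among the 9 was called, higher after siSHC1 (7.47 and 6.78 FPKM, against 3.27 and 2.16 FPKM in siControl). In bulk RNA, fewer cells of a type and less RNA per cell cannot be told apart.

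The genes covered a wide span of levels, here in FPKM, which are per length. HNRNPH1, which binds runs of G, was the highest with a mean of 1071 ± 63.4 FPKM (SD over 6 libraries) and 17.6% of the summed level of the 42 genes. PTBP1 (384 ± 42.3), HNRNPA2B1 (381 ± 21.6), HNRNPC (349 ± 25.6) and HNRNPA1 (296 ± 25.7) came next, and PTBP1 and HNRNPA2B1 differed by less than the SD of either. The highest SR gene was SRSF9 with 234 ± 15.2 FPKM, and the other tested SRSF genes had means between 42.7 (SRSF4) and 109 FPKM (SRSF2). At the low end stood PTBP3 (15.3 ± 2.10), HNRNPCL1 (6.38 ± 0.93), the neuronal PTBP2 (4.26 ± 0.38) and PCBP3 (3.10 ± 0.95). The 4 PCBP genes spanned a wide range, from PCBP2 with 259.9 ± 7.17 FPKM to PCBP3.

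**Figure D1:**
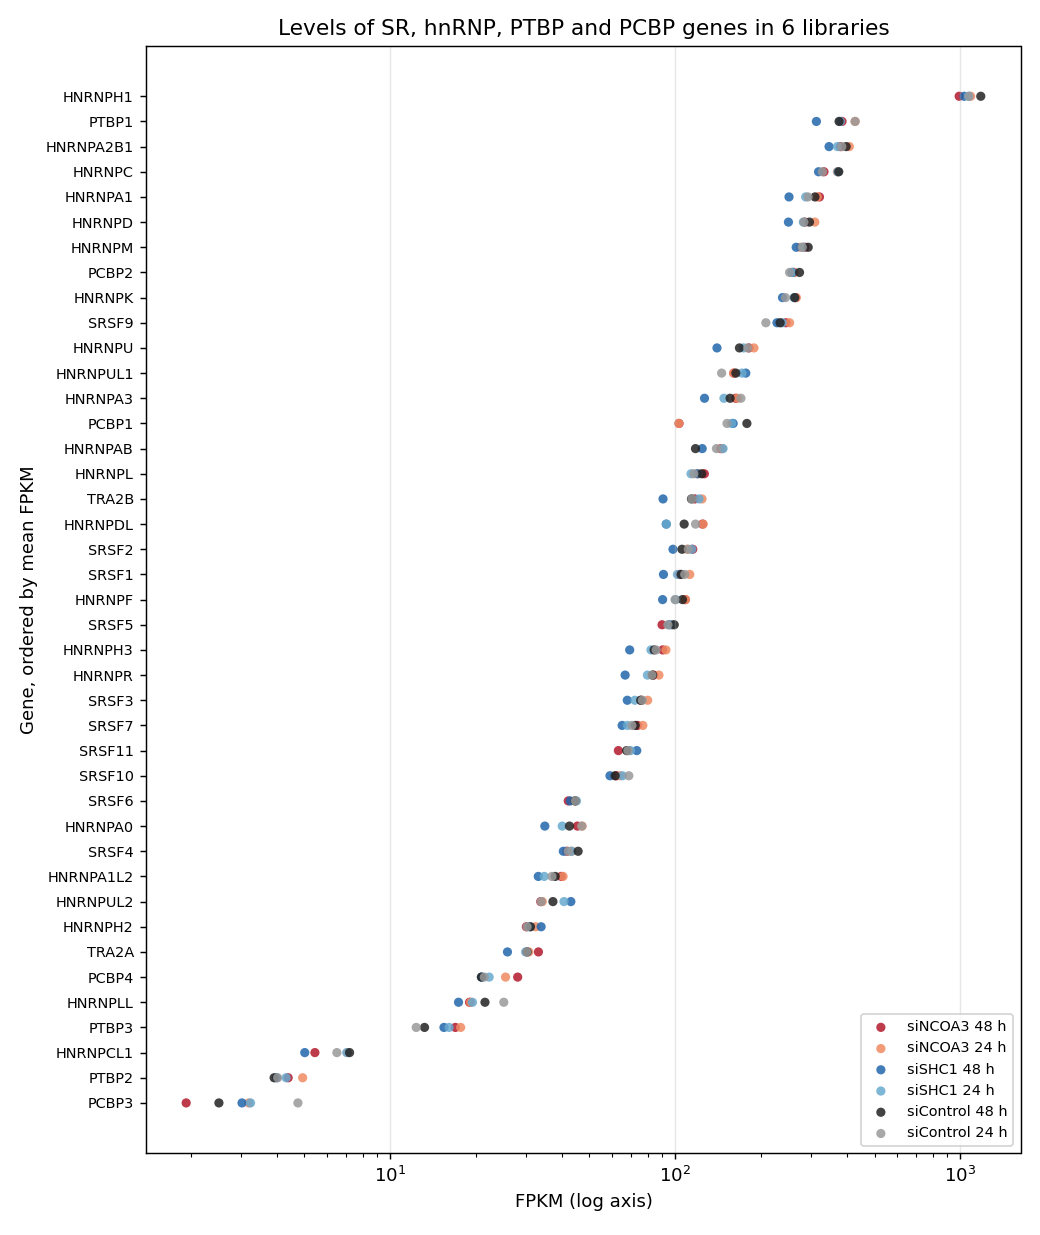
Each point is 1 library: FPKM (log axis) of the 41 genes that passed the filter, ordered by mean, for siNCOA3, siSHC1 and siControl at 48 h and 24 h. Most genes keep their 6 points close together, HNRNPH1 stands alone at about 1071 FPKM, and both siNCOA3 points of PCBP1 (103 FPKM) lie apart from the other 4.

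Levels varied little between libraries. The ratio of the highest to the lowest library was between 1.07 (SRSF6) and 1.44 (HNRNPLL, HNRNPCL1) for 39 of the 41 genes. It was 1.73 for PCBP1 and 2.47 for PCBP3, the second of which is a low gene. SRSF6 is the steadiest of them, with 42.1 and 44.6 FPKM in siNCOA3, 42.8 and 45.0 FPKM in siSHC1 and 44.5 and 44.6 FPKM in siControl (48 h and 24 h in each). PCBP2 was nearly as even, with a ratio of 1.08. Parts of some genes occur in other transcripts, so that their reads can be split or shared. Of all 50-base stretches of their annotated transcripts, another gene holds 58.7% for HNRNPCL1, 58.5% for HNRNPA1L2, 50.8% for SRSF1, 43.2% for HNRNPUL2 (mostly a readthrough transcript) and 22.8% for HNRNPA1. It was 16.5% for HNRNPA3, 15.0% for HNRNPH2, 13.7% for PCBP2 and 11.2% for HNRNPL, and lower for the other genes. The share was 0.059% for PCBP1 and 0.123% for HNRNPDL.

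The first comparison asks which of these genes differ after the siRNA against NCOA3. PCBP1 was lower at both times and was the only 1 of the 41 genes called by limma (Benjamini-Hochberg adjusted p under 0.05 over 11690 genes), where 0.111% of all tested genes were called. PCBP1 binds C-rich RNA and also delivers iron to ferritin, and its gene has 1 exon (chromosome 2, 70087454 to 70089203 on GRCh38, plus strand). It stood at 103 and 103 FPKM in the siNCOA3 libraries of 48 h and 24 h, against 159.6 and 158 FPKM in the siSHC1 libraries and 178 and 152 FPKM in the siControl libraries. Both siNCOA3 values thus lay below all other 4. After scaling this left 58.3% of siControl at 48 h and 62.7% at 24 h. PCBP1 fell by 0.72 ± 0.07 on a log2 scale (of scaled FPKM, with 1 added; SE, n = 2 per siRNA, adjusted p = 0.0253 by limma). The direction held under all 15 alternatives, with values between -0.77 and -0.67. The call was lost in 6 of them, with a limma adjusted p of 0.0955 without scaling and 0.326 without a filter. Leaving out siControl at 48 h gave 0.191, siNCOA3 at 48 h 0.177, siControl at 24 h 0.127 and siNCOA3 at 24 h 0.101.

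**Figure D2:**
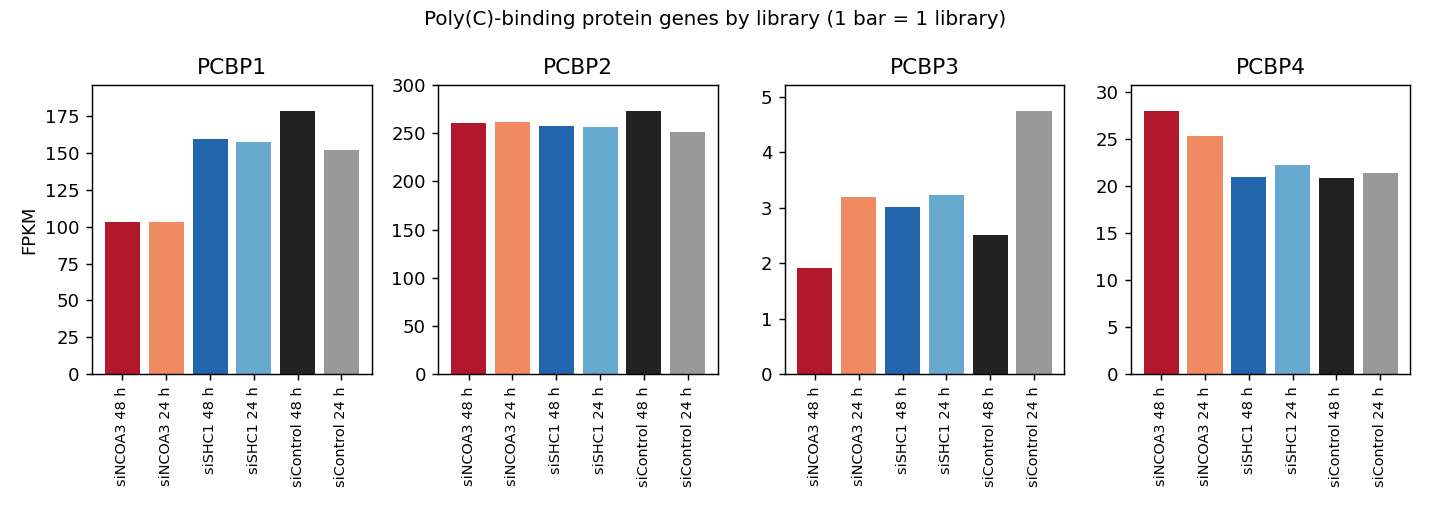
FPKM of PCBP1, PCBP2, PCBP3 and PCBP4, 1 bar per library, on axes that start at 0 and differ between panels. Both siNCOA3 bars of PCBP1 (103 FPKM) are lower than the siSHC1 and siControl bars (152 to 178 FPKM), PCBP2 is level, and both siNCOA3 bars of PCBP4 are the highest of its 6.

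The 7-base word GTCAAGA occurs in the 3′ UTR of PCBP1, 311 bases into an annotated length of 389 bases. This word had been picked earlier from these same fold changes, PCBP1 among them, so that its presence there supports nothing. It is shown because PCBP1 is the gene that was called, and because 4 other genes of these families carry the word too. The sites, read from GENCODE transcripts on GRCh38 with the word in capitals and 10 bases on each side, 5′ to 3′ on the strand of the gene, are as follows.
PCBP1 (chr2:70089115-70089141, plus): gttctgtaatGTCAAGAatttaagaat
HNRNPU (chr1:244852248-244852274, minus): aaaatctttaGTCAAGActagaattaa
SRSF2 (chr17:76734761-76734787, minus): gcctaaagctGTCAAGAgattgactca
HNRNPR (chr1:23305829-23305855, minus): atgactttggGTCAAGAggaaattaca
SRSF6 (chr20:43463845-43463871, plus): aagattaaaaGTCAAGAatatgaacag
In all 5 of 40 tested genes with an annotated 3′ UTR hold the word (12.5%), against 9.51% of 10915 tested genes. The fitted change after siNCOA3 was 0.04 for HNRNPU, 0.01 for SRSF2, -0.09 for SRSF6 and under 0.01 in size for HNRNPR, and none of these 4 passed the test. PCBP2, PCBP3 and PCBP4 lack the word in their annotated 3′ UTR. Sequences of the siRNAs were not used here.

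The other poly(C)-binding genes did not pass the test after siNCOA3. PCBP2, the closest relative of PCBP1, stood at 260.4 and 261 FPKM in siNCOA3 and 273 and 252 FPKM in siControl. Its fitted change was -0.06 ± 0.06. PCBP4, a KH protein induced by p53, had 27.99 and 25.4 FPKM in siNCOA3, against 20.9 and 22.2 FPKM in siSHC1 and 20.9 and 21.4 FPKM in siControl. Both siNCOA3 values of PCBP4 were above the other 4, with a fitted change of 0.27 ± 0.10 (SE, n = 2 per siRNA, adjusted p = 0.416 by limma). PCBP3 had 1.92 and 3.19 FPKM in siNCOA3, against 2.51 and 4.74 FPKM in siControl, groups that overlap, with a fitted change of -0.40 ± 0.18. HNRNPK, a KH protein that also binds C-rich RNA, had 264 and 266 FPKM in siNCOA3 and 262 and 244 FPKM in siControl, with a fitted change of 0.02 ± 0.07.

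Among the pyrimidine tract-binding genes PTBP3 had the second lowest unadjusted p of the 41 genes. It stood at 16.9 and 17.7 FPKM in siNCOA3, 15.4 and 16.1 FPKM in siSHC1 and 13.2 and 12.3 FPKM in siControl. Both siControl values are thus the lowest of the 6. The fitted change was 0.36 ± 0.09 after siNCOA3 (limma adjusted p = 0.305) and 0.25 ± 0.09 after siSHC1 (limma adjusted p = 0.133), 2 comparisons that share the siControl libraries. PTBP1, which represses exons next to pyrimidine tracts, had 385 and 427 FPKM in siNCOA3 and 375 and 427 FPKM in siControl. PTBP2 had 4.38 and 4.93 FPKM in siNCOA3 and 3.91 and 4.03 FPKM in siControl, with a fitted change of 0.14 ± 0.11.

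Among the hnRNP genes HNRNPLL, known for exon skipping in CD45 of lymphocytes, had 19.0 and 19.1 FPKM in siNCOA3, against 21.5 and 25.0 FPKM in siControl. The groups do not overlap, and the fitted change of -0.32 ± 0.10 did not pass (limma adjusted p = 0.384). HNRNPH1 had 990.5 and 1087 FPKM in siNCOA3 and 1179 and 1073 FPKM in siControl, with a fitted change of -0.17 ± 0.06 (limma adjusted p = 0.411). The SRSF genes had fitted changes between -0.10 (SRSF5) and 0.12 (SRSF9), and TRA2A and TRA2B, SR-like activators of purine-rich exons, had 0.03 each. Over the 41 genes the median change after siNCOA3 was -0.01, with 24 below 0, where 50.2% of all tested genes were below 0, and with 13 below 0 without scaling, where 38.4% were. Without overlap between the siNCOA3 and siControl libraries after scaling, 9 genes were lower and 7 higher, against 19.3% and 20.1% of all tested genes. As shares of the 41 genes, both counts are close to those over all genes. In single pairs 18 genes were below 0 at 48 h and 27 at 24 h, where 50.4% and 50.1% of all tested genes were.

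**Figure D3:**
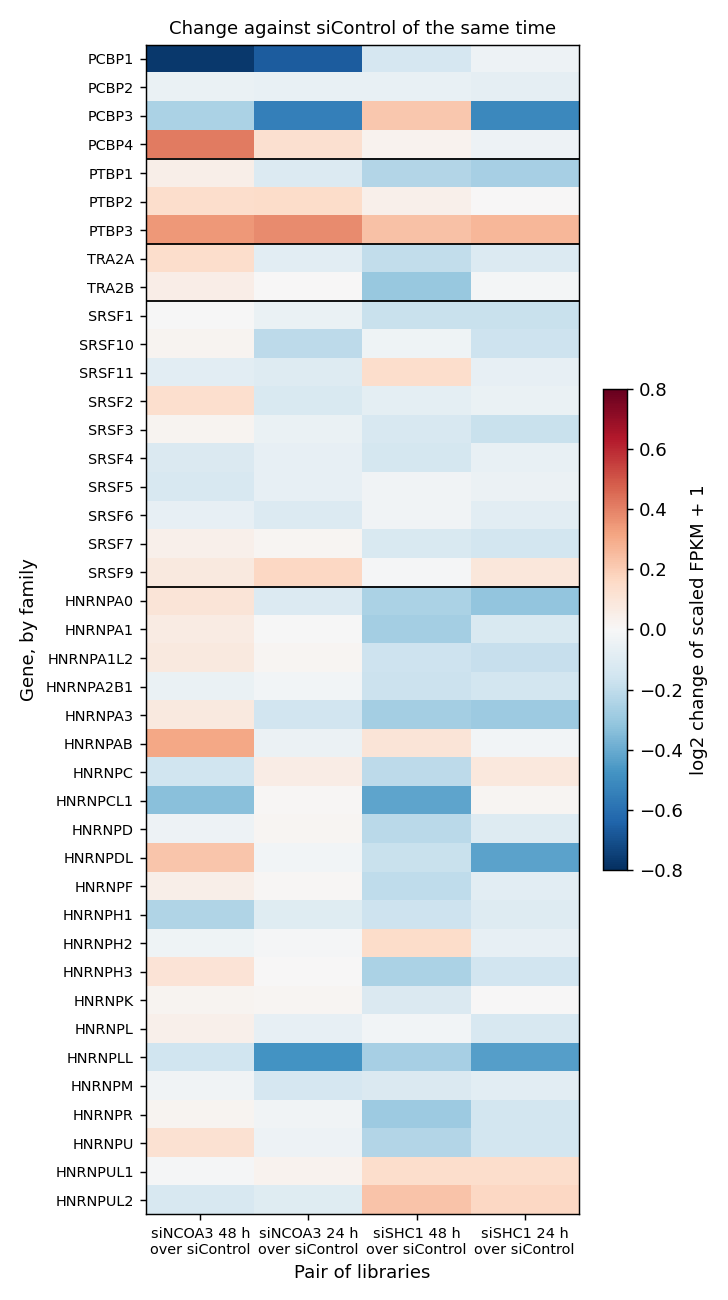
Change in log2(scaled FPKM + 1) against the siControl library of the same time, for the 41 genes by family, with siNCOA3 (48 h, 24 h) in the left pair of columns and siSHC1 (48 h, 24 h) in the right pair. Blue is lower and red higher than siControl. PCBP1 is the darkest blue in both siNCOA3 columns (-0.77 and -0.67), and most hnRNP genes are pale blue in both siSHC1 columns.

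The second comparison asks the same of the siRNA against SHC1. None of the 41 genes was called by limma, where 6.42% of all tested genes were called. Most fitted changes were small and negative: they were below 0 in 33 of the 41 genes, where 49.3% of all tested genes were below 0. The median was -0.14 for the 41 genes and 0.00 for all tested genes. By family it was -0.16 for the 22 HNRNP genes (18 below 0) and -0.08 for 10 SRSF genes (8 below 0). It was -0.08 for the PCBP genes (4 of 4 below 0), -0.15 for TRA2A and TRA2B (both below 0) and 0.02 for the PTBP genes (1 of 3 below 0). PCBP4 was above 0 without scaling, without siControl at 24 h and without siSHC1 at 48 h. PCBP3 was above 0 without siControl at 24 h and without siSHC1 at 24 h. In the single pair of 48 h, 2 PCBP genes were below 0 and 2 above. At an unadjusted limma p under 0.05, 11 genes were lower and 2 higher, against 12.3% and 14% of all tested genes. Without overlap between siSHC1 and siControl after scaling, 22 were lower and 3 higher, against 23.9% and 24.1% of all tested genes.

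The 11 genes lower at an unadjusted p under 0.05 were HNRNPLL, HNRNPDL, HNRNPA0, HNRNPA3, PTBP1, HNRNPR, HNRNPH3, HNRNPA1, SRSF1, HNRNPD and HNRNPA2B1, and their adjusted p lay between 0.0726 and 0.171 (limma). HNRNPDL, a relative of HNRNPD, had 92.9 and 93.1 FPKM in siSHC1, against 107 and 118 FPKM in siControl. Its fitted change was -0.31 ± 0.09 (SE, n = 2 per siRNA, adjusted p = 0.0877 by limma). HNRNPLL had 17.4 and 19.4 FPKM in siSHC1, against 21.5 and 25.0 FPKM in siControl, with a fitted change of -0.36 ± 0.10 (limma adjusted p = 0.0918). Neither gene's groups overlap, and neither passed the test. HNRNPA0, which binds AU-rich elements, had 34.9 and 40.1 FPKM in siSHC1, against 42.5 and 47.0 FPKM in siControl (-0.29 ± 0.09). HNRNPA3, a relative of HNRNPA2B1, had 127 and 148 FPKM in siSHC1, against 156 and 169.9 FPKM in siControl (-0.28 ± 0.08).

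PTBP1 had the lowest p of the 41 genes in this comparison. It stood at 313 and 379 FPKM in siSHC1, against 375 and 427 FPKM in siControl, groups that overlap across times though siSHC1 was lower at each time (84.8% of siControl at 48 h and 83.0% at 24 h after scaling). The fitted change was -0.25 ± 0.07 (limma adjusted p = 0.0726). It stayed uncalled in 11 of 15 alternatives, which include leaving out any 1 of the siSHC1 and siControl libraries. It was called in 4. These were either siNCOA3 library left out, only the siSHC1 and siControl libraries fitted (limma adjusted p = 0.0482) and equal library totals (0.0433).

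The abundant hnRNPs of the A and C groups were followed in the same way. HNRNPA1, which silences exons and shuttles between nucleus and cytoplasm, had 251 and 287 FPKM in siSHC1, against 309 and 292 FPKM in siControl, with a fitted change of -0.20 ± 0.07 (limma adjusted p = 0.146). HNRNPA2B1 had 346 and 371 FPKM in siSHC1, against 398 and 384 FPKM in siControl (-0.16 ± 0.06). Both siSHC1 libraries were thus below both siControl libraries for these 2 genes, by less than the test asks for. HNRNPC, which binds U tracts, had no like sign at both times, with 318 and 372 FPKM in siSHC1 and 375 and 328 FPKM in siControl. HNRNPU, a scaffold protein of the nuclear matrix, had 140.0 and 174 FPKM in siSHC1 and 168 and 179.5 FPKM in siControl (-0.19 ± 0.08).

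The fitted change was above 0 in 8 genes after siSHC1, where it was in 50.7% of all tested genes. These were PTBP3, HNRNPUL2, HNRNPUL1, HNRNPAB, SRSF9, HNRNPH2, SRSF11 and PTBP2, of which the last 5 were below 0 with equal library totals. HNRNPUL2, a relative of HNRNPU linked to DNA repair, had 43.0 and 40.7 FPKM in siSHC1, against 37.2 and 33.9 FPKM in siControl, with a fitted change of 0.20 ± 0.08 (limma adjusted p = 0.183). HNRNPUL1 had 177 and 171 FPKM in siSHC1, against 163 and 145 FPKM in siControl (0.14 ± 0.06). These 2 genes and PTBP3 were the 3 whose siSHC1 libraries both lay above both siControl libraries after scaling. Among the SR genes, SRSF1, the first SR protein described, had 90.9 and 102 FPKM in siSHC1, against 105 and 108 FPKM in siControl (-0.18 ± 0.07, limma adjusted p = 0.164). SRSF3 stood at -0.15 ± 0.07 and SRSF7 at -0.14 ± 0.07, and the other 7 tested SRSF genes lay between -0.10 and 0.04.

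The direction was much the same in each pair of libraries. Against the siControl library of the same time, 32 of the 41 genes were below 0 in siSHC1 at 48 h and 33 at 24 h, where 48.5% and 49.7% of all tested genes were below 0. Values below -0.2 on the log2 scale were seen in 13 genes at 48 h and 6 at 24 h, against 22.2% of all tested genes at both times. Above 0.2 there were 3 genes at 48 h and 1 at 24 h, against 23.7% and 21.7%. The spread of the genes was narrow: the SD of the single-pair changes was 0.16 at 48 h and 0.15 at 24 h, against 0.34 and 0.32 over all tested genes. The genes were not matched by level, and the part of level in this difference was not tested. These pairs have no replicate and carry no p-value. The count at 24 h depends on scaling: without it 20 of the 41 genes were below 0, where 36.6% of all tested genes were, and the median of all genes was then 0.09.

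**Figure D4:**
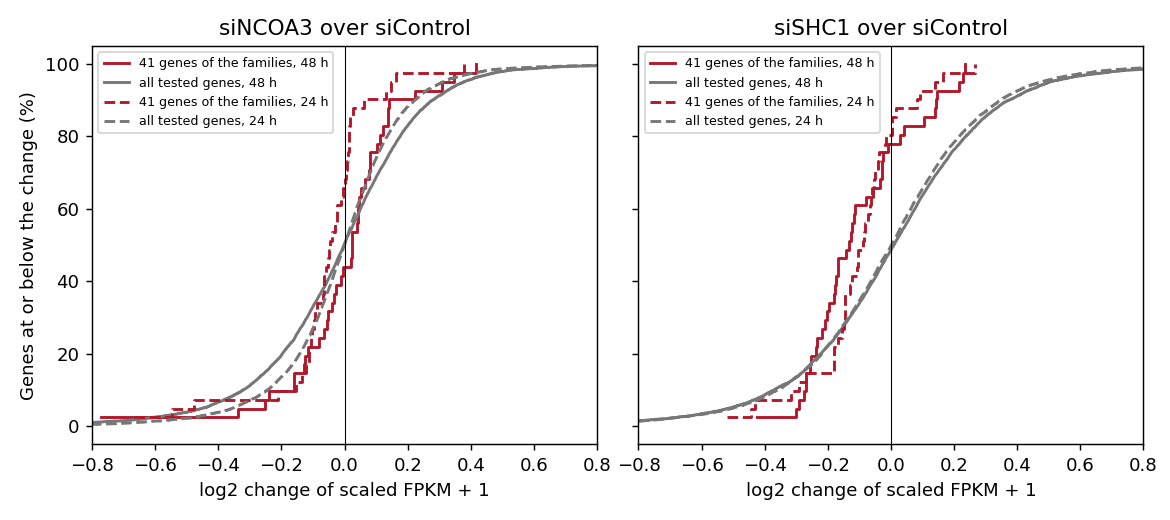
Share of genes (%) at or below a given change on the log2 scale against siControl, for siNCOA3 (left) and siSHC1 (right), at 48 h (solid) and 24 h (dashed); red, the 41 genes; grey, all 11690 tested genes. After siSHC1 the red lines cross 0 at 78.0% (48 h) and 80.5% (24 h) while the grey lines cross at 48.5% and 49.7%, and the red lines are steeper on both sides.

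The siSHC1 library of 48 h was the lowest of the 6 after scaling for 24 of the 41 genes, against 22.6% of all tested genes, and siControl at 24 h was the highest for 17, against 16.9%. Both siSHC1 libraries and the siControl library of 24 h have the least depth of the 6, and whether depth has a part in these counts was not tested. The marker COL1A1 given above was higher after siSHC1. EGFR, a marker of the line, was called lower, with 28.7 and 32.9 FPKM in siSHC1, against 44.4 and 48.9 FPKM in siControl (-0.62 ± 0.09, limma adjusted p = 0.0164, lost in 4 of 15 alternatives). Against siNCOA3 (52.4 and 54.0 FPKM) EGFR was called lower too (-0.76 ± 0.09, limma adjusted p = 0.00689, lost in 2 of 15 alternatives). CAV1, another marker of the line, was called higher in siSHC1 than in siNCOA3 (479 and 475 FPKM, against 390.8 and 373 FPKM). That difference was 0.34 ± 0.06 (limma adjusted p = 0.0208, lost in 6 of 15 alternatives). In siControl CAV1 had 481 and 413 FPKM. It was not called against siControl after siSHC1, nor after siNCOA3 (-0.27 ± 0.06, limma adjusted p = 0.255). The part of these markers in the counts over the 41 genes was not tested. The summed scaled level of the 22 HNRNP genes was 3875 and 4148 FPKM in siSHC1, 4176 and 4299 FPKM in siNCOA3 and 4321 and 4431 FPKM in siControl. The sum over the 4 PCBP genes, carried by PCBP1 and PCBP2, was 390.0 and 383 FPKM in siNCOA3, 441 and 434 FPKM in siSHC1 and 466 and 454 FPKM in siControl.

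The word GCCCATC, picked earlier from the fold changes after siSHC1, occurs in 2 of the 40 annotated 3′ UTRs (5%), against 8.997% of 10915 tested genes. As with the first word, that choice means that its presence supports nothing. The 2 sites are shown to set beside those of the first word.
HNRNPA3 (chr2:177222464-177222490, plus): tcagtaagctGCCCATCctcatactag
SRSF10 (chr1:23967078-23967104, minus): agctaagaggGCCCATCtcttctcacc
The capitals mark the word. HNRNPA3 had the fitted change of -0.28 given above, and SRSF10, an SR protein that turns into a repressor when it is dephosphorylated, had -0.10 ± 0.09. Of the 38 genes whose annotated 3′ UTR lacks this word, 30 were below 0 after siSHC1. Over all tested genes without the word, 4723 of 9933 were below 0, and 673 of 982 with it. A link between the word and these changes was not tested. HNRNPCL1, also below 0, has no annotated 3′ UTR there.

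Set directly against each other, siSHC1 and siNCOA3 differed in 2 of the 41 genes, where 9.74% of all tested genes were called (5.35% higher and 4.4% lower in siSHC1). PCBP1 was higher in siSHC1 than in siNCOA3 (159.6 and 158 FPKM, against 103 and 103 FPKM), which is a log2 difference of 0.63 ± 0.07 (SE, n = 2 per siRNA, adjusted p = 0.00606 by limma). This call held in 14 of 15 alternatives and had an adjusted p of 0.0668 without a filter. HNRNPDL (chromosome 4, 82422564 to 82430408 on GRCh38, minus strand) was lower in siSHC1 (92.9 and 93.1 FPKM) than in siNCOA3 (125 and 125 FPKM). Its change was -0.41 ± 0.09 (limma adjusted p = 0.0360), and siControl lay between, with 107 and 118 FPKM. The adjusted p of HNRNPDL was 0.2003 without siNCOA3 at 48 h, 0.134 without siSHC1 at 24 h, 0.0818 without siSHC1 at 48 h, 0.0678 without siNCOA3 at 24 h, 0.0647 without a term for time and 0.120 without a filter (limma).

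Several genes came near the threshold in this comparison without passing it. HNRNPUL2 had 43.0 and 40.7 FPKM in siSHC1, against 33.7 and 34.1 FPKM in siNCOA3, a difference of 0.31 ± 0.08 (limma adjusted p = 0.0584). HNRNPA0 had 34.9 and 40.1 FPKM in siSHC1, against 45.3 and 47.1 FPKM in siNCOA3 (-0.28 ± 0.09, limma adjusted p = 0.0860). PCBP4 differed by -0.28 ± 0.10, HNRNPH3 by -0.26 ± 0.08 and PTBP1 by -0.22 ± 0.07. In all, 32 of the 41 genes were lower in siSHC1, where 49.4% of all tested genes were. Without overlap after scaling, 21 genes were lower and 5 higher, against 28.8% and 29.5% of all tested genes. The 5 higher were PCBP1, HNRNPUL2, HNRNPUL1, SRSF11 and SRSF5. This comparison shares its libraries with the other 2, so that its counts are not independent of theirs.

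Between the times no gene of the 41 was called by limma, where 0.0257% of all tested genes (3 genes) were called. At 48 h, 34 of the 41 genes had a fitted change below 0 against 24 h, where 47.8% of all tested genes were below 0, with a median of -0.07 for the 41 and 0.01 for all genes. At an unadjusted limma p under 0.05 there were 5 lower and 0 higher, against 5.52% and 8.68% of all tested genes. The 5 were PCBP3, PTBP1, TRA2B, HNRNPAB and HNRNPU. Without overlap between the 3 libraries of each time after scaling, 3 genes were lower (PCBP3, TRA2B and SRSF10) and 0 higher, against 5.22% and 5.36% of all tested genes.

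PTBP1 had 385, 313 and 375 FPKM at 48 h in siNCOA3, siSHC1 and siControl, against 427, 379 and 427 FPKM at 24 h. It was lower at 48 h within each siRNA, at -0.13, -0.26 and -0.29 on the log2 scale, with a fitted change of -0.23 ± 0.05 (SE, n = 3 per time, adjusted p = 0.281 by limma). TRA2B had 117, 90.6 and 114 FPKM at 48 h, against 124, 121 and 114 FPKM at 24 h. Most of its fitted change of -0.19 ± 0.08 lay in siSHC1, where it was -0.40, against -0.06 in siNCOA3 and -0.11 in siControl. The value in siControl rests on scaling (factors 1.02 at 48 h and 0.947 at 24 h), as the FPKM were 114 at both times. Before scaling the TRA2B values of the 2 times overlapped. TRA2A had 33.1, 25.8 and 30.2 FPKM at 48 h, against 30.6, 29.8 and 30.1 FPKM at 24 h, and its siSHC1 library of 48 h was again the lowest of the 6. PCBP3 had 1.92, 3.02 and 2.51 FPKM at 48 h, against 3.19, 3.24 and 4.74 FPKM at 24 h, with a fitted change of -0.45 ± 0.15 (limma adjusted p = 0.2999) at a level near the filter.

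HNRNPAB, another relative of HNRNPD, had 145, 124 and 118 FPKM at 48 h in siNCOA3, siSHC1 and siControl, against 146, 147 and 139 FPKM at 24 h. Its fitted change was -0.19 ± 0.08, and almost none of it lay in siNCOA3 (0.01). HNRNPCL1, a copy of HNRNPC, had 5.44, 5.01 and 7.20 FPKM at 48 h, against 7.07, 7.04 and 6.499 FPKM at 24 h. For HNRNPCL1, siControl thus went the other way. Of the stretches of its annotated transcripts, another gene holds 58.7%, and HNRNPCL2 alone holds 43.9%. How far its reads were shared was not tested. Within siNCOA3 24 of the 41 genes were below 0 at 48 h against 24 h, within siSHC1 33 and within siControl 31, where 47.8%, 47.6% and 49.2% of all tested genes were below 0. No gene of the 41 was above 0.2 in any of the 3, against 10.5%, 21.2% and 20.1% of all tested genes, which were not matched by level.

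**Figure D5:**
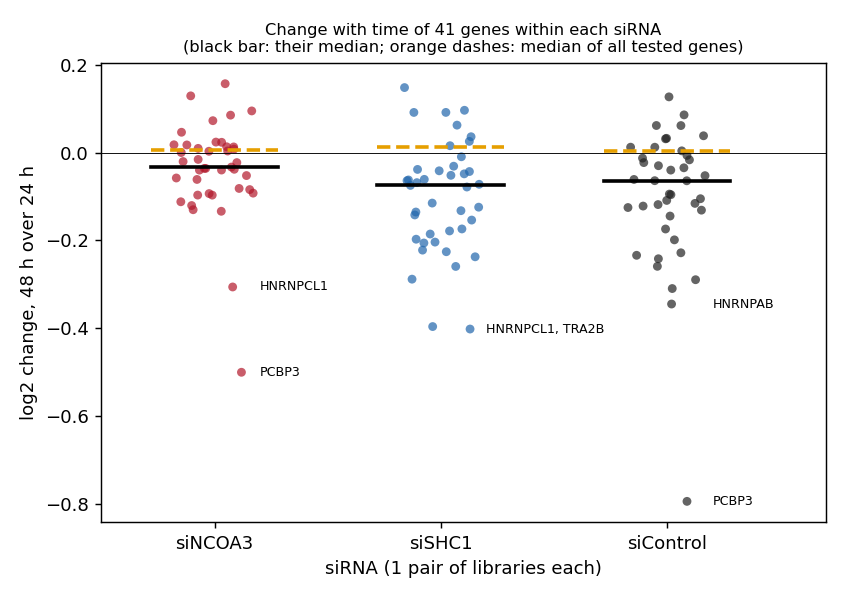
Change on the log2 scale between the 48 h and the 24 h library of each siRNA, 1 point per gene for the 41 genes; black bars are their medians and orange dashes the medians of all tested genes. The medians of the 41 genes are -0.03 in siNCOA3, -0.07 in siSHC1 and -0.06 in siControl, each under that of all genes, and PCBP3 is the lowest point in siNCOA3 and in siControl.

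Genes that work with these proteins were counted in 7 lists. After siNCOA3, and between the times, limma called 0 of their 122 tested genes, with 3 higher and 3 lower after siNCOA3 and 2 higher and 6 lower between the times at an unadjusted p under 0.05. Over all tested genes the shares at that p were 4.6% higher and 5.89% lower after siNCOA3, and 8.68% higher and 5.52% lower between the times. After siSHC1 the kinase SRPK1 was the only 1 of 8 tested SR protein kinases called, where 6.42% of all tested genes were called. Of the 8, 5 had a fitted change below 0, where 49.3% of all tested genes did. SRPK1 phosphorylates SR proteins in the cytoplasm before their import, and stood at 69.8 and 71.0 FPKM in siSHC1, against 94.1 and 103 FPKM in siControl. It fell by 0.52 ± 0.08 (SE, n = 2 per siRNA, adjusted p = 0.0239 by limma), and the nuclear SR kinase CLK2 had 13.8 and 12.2 FPKM in siSHC1 and 14.3 and 11.2 FPKM in siControl. The call of SRPK1 was lost in 5 of 15 alternatives, among them without siControl at 24 h, siSHC1 at 24 h or siControl at 48 h. Its fitted change lay between -0.62 and -0.41 over the 15. Against siNCOA3 (106 and 111 FPKM) SRPK1 was lower in siSHC1 by 0.60 ± 0.08 (limma adjusted p = 0.0107). That call was lost in 2 of 15 alternatives, among them without siNCOA3 at 48 h.

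Of 14 tested genes of nonsense-mediated decay, the pathway on which self-limiting exons of SR genes depend, 11 were below 0 after siSHC1. Their median was -0.14, and 49.3% of all tested genes were below 0. CASC3, a part of the exon junction complex, had 18.1 and 17.7 FPKM in siSHC1, against 26.8 and 24.0 FPKM in siControl (-0.51 ± 0.08, limma adjusted p = 0.0239). The call of CASC3 was lost in 5 of 15 alternatives, which include leaving out any 1 of the 4 libraries compared. Against siNCOA3, CASC3 was also called lower in siSHC1 (-0.39 ± 0.08, limma adjusted p = 0.0365). That call was lost in 9 of 15 alternatives, which include leaving out any 1 of the 6 libraries (limma adjusted p between 0.0554 and 0.147). All 14 genes were below 0 in this comparison, where 49.4% of all tested genes were below 0 and 9.74% were called.

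Among 19 tested regulators of alternative splicing outside these families, KHDRBS3, of the STAR family, was the only 1 called after siSHC1, and it fell. Over all tested genes 6.42% were called. Of the 19, 8 were above 0 and 11 below 0, where 49.3% of all tested genes were below 0. KHDRBS3 had 1.31 and 2.11 FPKM in siSHC1, against 3.58 and 3.48 FPKM in siControl (-0.78 ± 0.14, limma adjusted p = 0.0293). Its call was lost in 5 of the 14 alternatives in which it was tested. Among these were leaving out siControl at 48 h, siSHC1 at 48 h or siControl at 24 h. Against siNCOA3, 1 of the 19 was called higher and 1 lower in siSHC1, where 5.35% and 4.4% of all tested genes were. KHDRBS3 was again lower in siSHC1 (-0.91 ± 0.14). QKI, of the same family, was higher (43.5 and 51.1 FPKM, against 33.6 and 36.0 FPKM in siNCOA3, 0.44 ± 0.08, limma adjusted p = 0.0253). QKI differed by -0.43 ± 0.08 between siNCOA3 and siControl and did not pass there (limma adjusted p = 0.194). The call of QKI between the siRNAs was lost in 6 of 15 alternatives, which include leaving out any 1 of the 4 libraries compared. That of KHDRBS3 was lost in 4 of 14, among them without siNCOA3 at 48 h, siSHC1 at 48 h or siNCOA3 at 24 h.

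Of 44 tested core spliceosome genes none was called by limma after siSHC1, where 6.42% of all tested genes were called. At an unadjusted limma p under 0.05, 3 were higher and 5 lower, against 14% and 12.3% of all tested genes. There were 22 above and 22 below 0, with a median of 0.01, beside the median of -0.14 for the 41 genes above. Against siNCOA3, 30 of the 44 were below 0 in siSHC1, where 49.4% of all tested genes were. The median was -0.07, beside -0.09 for the 41 genes. At an unadjusted limma p under 0.05, 1 of the 44 was higher and 9 were lower. The shares at that p were 15.8% and 13.6% of the 11649 tested genes outside the 41. By adjusted p, 9.74% of all tested genes were called in this comparison. SNRNP40, a protein of the U5 particle, was the 1 called there, lower in siSHC1 (20.6 and 23.0 FPKM, against 32.2 and 31.5 FPKM in siNCOA3, -0.51 ± 0.09, limma adjusted p = 0.0208). The call of SNRNP40 was lost in 3 of 15 alternatives, among them without siNCOA3 at 48 h or siSHC1 at 48 h. Of 17 tested hnRNP-like genes outside the symbol rule, RAVER1, a partner of PTBP1 in exon repression, was lower in siSHC1 than in siNCOA3 (30.9 and 31.2 FPKM, against 38.9 and 41.6 FPKM, -0.35 ± 0.08, limma adjusted p = 0.0436). Its call was lost in 10 of 15 alternatives, which include leaving out any 1 of the 6 libraries and no scaling (limma adjusted p = 0.0602). After siSHC1 12 of these 17 genes were below 0 against siControl, where 49.3% of all tested genes were, with a median of -0.07. None of 17 tested SR-related genes (such as SRRM1) and none of 3 import receptors (TNPO1, TNPO2, TNPO3) was called by limma in any of the 4 comparisons. At an unadjusted p under 0.05, 1 SR-related gene was higher after siSHC1 and 2 were lower in siSHC1 than in siNCOA3. The shares in these directions were 14% of all tested genes and 13.6% of the 11649 outside the 41.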

How the data were processed

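The authors deposited FPKM (fragments per kilobase and per M fragments) for 20111 genes by symbol. The values are not whole numbers, although the table is named for read counts. The tools STAR, Cufflinks and DESeq2 and the build hg19 stand in the submitters' processing notes, without role or version. Per the labels' protocols, RNA was taken with Trizol and put through a stranded kit for mRNA. For annotation and strand in counting, nothing is given in the sources used here.

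FPKM were scaled by the median of ratios over 11042 genes (factors 0.947 to 1.02). Genes with at least 1 scaled FPKM in at least 2 libraries (11690) were tested on log2(scaled FPKM + 1), where 1 is the pseudocount, which understates the change of low genes. The test was limma 3.58.1 in R 4.3.3 (trend and robust moderation) with siRNA and time as additive terms, fitted to all 6 libraries with none dropped, which leaves 2 residual degrees of freedom. A call is a Benjamini-Hochberg adjusted p under 0.05 over all tested genes. Unlike changes at the 2 times add to the residual spread of a gene, but do not bar a call. The script was tested on simulated data. Single pairs have no p-value. Alternatives were other scalings, filters, pseudocounts and models, and each library left out. Depth is unknown, so that no counting interval is given.

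The genes and lists were chosen with earlier results of these data known. By rule, values are given for the PCBP, PTBP and TRA2 genes, called genes, the 5 largest changes per comparison, the 5 highest and 5 lowest genes, and called genes of the lists. The result of 1 gene of the lists is not reported here. HNRNPK, HNRNPU, HNRNPH3, HNRNPUL1, HNRNPR, CLK2, the SRSF genes and other genes listed behind a count were named after their values were seen. Transcripts came from GENCODE release 29 on GRCh38, with the longest 3′ UTR of each symbol (at least 30 bases). That build is not the authors', and the deposited table holds no coordinates. Protein sequences were not used here. Python 3.11.15, pandas 2.3.3, numpy 2.4.6 and matplotlib 3.10.9 were used for sequences and plots.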

Additional observations from a re-analysis of the deposited data

Results flagged for a closer look

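PCBP3 moved in opposite directions at the 2 times after siSHC1. Against the siControl library of the same time it was at 0.22 on the log2 scale at 48 h and at -0.52 at 24 h. It had 3.02 and 3.24 FPKM in siSHC1 at 48 h and 24 h, against 2.51 and 4.74 FPKM in siControl, so that the 2 siSHC1 values are close and the 2 siControl values are far apart. The difference between the times was not tested, as each pair has 1 library a side, and the level is among the lowest of the 41 genes.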

How the results depend on the processing

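No direction was reversed, under any alternative run, for the genes called, the 5 largest changes per comparison and those at an unadjusted p under 0.05. Over all 41 genes, in a count added after seeing the data, 23 changed sign in at least 1 alternative after siNCOA3 (11 of them without scaling, among them PTBP1, SRSF1 and HNRNPA2B1), 10 after siSHC1, 12 between the siRNAs and 10 between the times. None of these was called, and their fitted changes were at most 0.16, 0.15, 0.25 and 0.07 in size. After siNCOA3 the number of genes called became 0 without scaling and 0 without a filter, and ran from 0 to 1 with libraries left out. After siSHC1 it became 1 (PTBP1) with equal library totals and 1 with only the 2 groups compared, and ran from 0 to 1 with libraries left out. Between siSHC1 and siNCOA3 it became 0 without a filter and 1 without the term for time, and ran from 1 to 2 with libraries left out. Between the times it was 0 throughout. Without a filter far more low genes enter the adjustment. The number of genes below 0 after siNCOA3 became 13 without scaling (38.4% of all genes) and ran from 19 to 32 with libraries left out. These ranges were 31 to 35 after siSHC1, 29 to 32 between the siRNAs and 29 to 33 between the times. Without scaling the single pair of siNCOA3 at 24 h had 8 of 41 genes below 0 (27.1% of all genes), against 27 with it, as the median of all genes moved by 0.10. Of the results for single genes and single pairs under alternatives, 695 stayed the same, 92 lost a call and 4 gained one. For a gene, the same means its side of the threshold. Counts of single pairs have no threshold, and 2 of them moved, both at 24 h without scaling. The labels give no replicate numbers, so that no replicate block was fitted. The term for time pairs the libraries of 1 time in each siRNA comparison, and the counts that differ without it are given above. As read depth is unknown, its limit on low genes such as PCBP3 and PTBP2 cannot be given.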
